A study of Mus musculus with 6 samples.

Results

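The genes described here are 10 members of the semaphorin guidance system in mouse muscle stem cells: the membrane-anchored semaphorin gene Sema7a, its receptor gene Plxnc1 (plexin C1), the secreted class 3 semaphorin genes Sema3a, Sema3b, Sema3c, Sema3d, Sema3e and Sema3f, and the neuropilin genes Nrp1 and Nrp2. They were found by gene symbol, and each had 1 row among the 32973 genes of the deposited table. The set was put together with the difference between knockout and control cells already known, above all that of Sema7a. Differences of the 10 genes between the groups are therefore given as a description, without a test.

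RNA was sequenced from primary muscle stem cells isolated from skeletal muscle by flow cytometry and grown for 3 days. The medium was F10 with 20% fetal bovine serum and 5 ng/ml basic fibroblast growth factor, on type I collagen. Knockout cells (Med23KO, 3 libraries) had the genotype Med23flox/flox::Pax7CreERT2, that is, loxP-flanked Med23 alleles and an inducible Cre recombinase expressed with Pax7, the transcription factor of muscle stem cells. Control cells (Ctrl, 3 libraries) had the genotype Med23flox/flox, with the same flanked alleles and no Cre. Treatment was labelled as none in both groups, and the labels used here give no age and no account of how Cre was activated. The Med23 protein belongs to Mediator, which relays signals of transcription factors to RNA polymerase II. Effects of Cre and of Med23 loss cannot be told apart, since no group carried Cre alone. The labels do not say that the libraries of a group came from separate animals, so the spread between them may be technical.

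Semaphorins are guidance proteins that steer axons, blood vessels and migrating cells, mostly by binding plexins, whose cytoplasmic part acts on small GTPases and so on the cytoskeleton. Sema7a is held at the cell surface by a lipid anchor and binds plexin C1 and integrins with the beta 1 chain. Class 3 semaphorins are secreted, and most of them need a neuropilin as the ligand-binding partner of an A-type plexin, while Sema3e can bind plexin D1 directly. In rodent muscle, activated satellite cells are known to secrete Sema3a, which has been linked to the growth of motor nerve endings.

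Levels are FPKM, that is, fragments per kilobase of transcript scaled by library size, which lets genes and libraries be set side by side. Read depth is not known for any library, and the spread of 3 libraries is the only measure of precision. The sum of FPKM was 599738 to 675095 in Med23KO libraries, against 697886 to 746973 in Ctrl libraries. The scaling thus left the totals of the groups unequal, which limits comparison between libraries. Med23 itself was at 5.10, 5.86 and 4.23 FPKM in Med23KO replicates 1, 2 and 3, against 10.4, 11.7 and 10.2 FPKM in Ctrl replicates 1, 2 and 3 (log2 fold change -0.96, SE 0.133; limma adjusted p = 0.0197). Leaving out any Ctrl replicate, or Med23KO replicate 1 or 2, put that adjusted p between 0.0580 and 0.108. Fold changes are on the log2(FPKM + 1) scale, which understates the change of low genes. The fit took in 12336 genes, those whose mean over all libraries reached 1 FPKM. Of these, 2.91% passed the limma test in either direction (adjusted p under 0.05), and 24.7% had groups that did not overlap.

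Sema7a was the member with the largest difference. Its level was 7.48, 6.40 and 9.31 FPKM in Med23KO replicates 1, 2 and 3, against 45.1, 50.6 and 51.9 FPKM in Ctrl replicates 1, 2 and 3. Every knockout library lay far below every control library, and the gap between the groups was wider than the spread within either. The mean was 7.73 ± 1.47 FPKM in Med23KO and 49.2 ± 3.60 FPKM in Ctrl (SD, n = 3 each), so the knockout mean was 15.7% of the control mean. The log2 fold change was -2.53 (SE 0.140), and it ran from -2.66 to -2.42 when any 1 of the 6 libraries was left out.

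Plxnc1, which encodes the plexin that binds Sema7a, was among the scarcest of the 10. Its level was 1.03, 0.838 and 0.598 FPKM in Med23KO replicates 1, 2 and 3, against 0.645, 0.271 and 0.322 FPKM in Ctrl replicates 1, 2 and 3. The knockout mean was 1.99-fold the control mean, but the groups overlapped, since Med23KO replicate 3 lay under Ctrl replicate 1. In each library Sema7a exceeded its receptor gene, by 7.26-fold to 15.6-fold in Med23KO and by 70.0-fold to 186-fold in Ctrl. The integrin subunit genes Itgb1 and Itga1, which encode the other known receptor of Sema7a, did not pass the test. Itgb1 averaged 223 ± 31.4 FPKM in Med23KO and 211 ± 35.6 FPKM in Ctrl (SD, n = 3 each; log2 fold change 0.09, SE 0.153, limma adjusted p = 0.815). Itga1 averaged 1.42 ± 0.286 FPKM in Med23KO and 1.23 ± 0.388 FPKM in Ctrl (SD, n = 3 each; limma adjusted p = 0.765). The small differences of the integrin pair changed sign with single libraries: without Ctrl replicate 1 the log2 fold change was -0.04 for Itgb1 and -0.02 for Itga1, and for Itgb1 it was also -0.02 without Med23KO replicate 3.

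**Figure D1:**
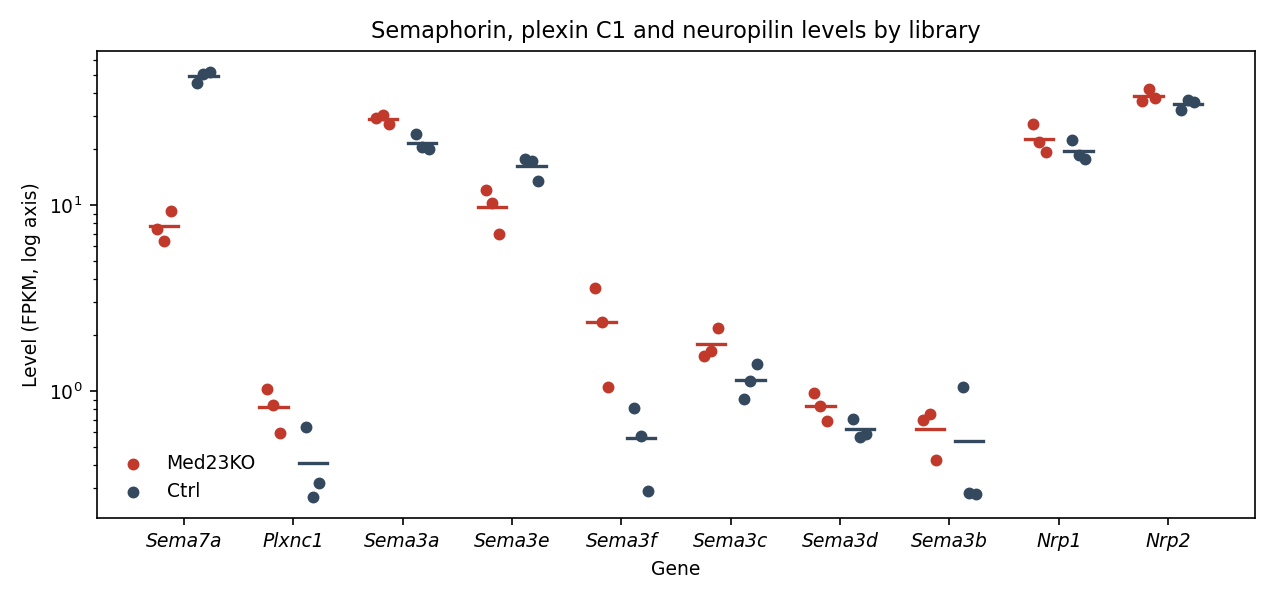
Level of each of the 10 genes in FPKM (log axis) in the 3 Med23KO libraries (red, left of each pair) and the 3 Ctrl libraries (dark, right); points are libraries and lines are group means. Sema7a separates most widely, at 6.40 to 9.31 FPKM in Med23KO against 45.1 to 51.9 FPKM in Ctrl, while the neuropilin groups overlap.

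Promoter sequence was at hand for 8 of the 10 genes, all but Sema3b and Sema3f, in windows from RefSeq on GRCm38.p6 (mm10). The windows of the pair of genes that were lower in every knockout library, Sema7a and Sema3e, are printed for the 250 bases before the start site, 5′ to 3′ on the plus strand, on which both genes lie. Capitals mark the E-box CAGCTG, a motif that myogenic basic helix-loop-helix factors can bind. The Sema7a window is chr9:57939862-57940111 and the Sema3e window chr5:14025026-14025275.
Sema7a: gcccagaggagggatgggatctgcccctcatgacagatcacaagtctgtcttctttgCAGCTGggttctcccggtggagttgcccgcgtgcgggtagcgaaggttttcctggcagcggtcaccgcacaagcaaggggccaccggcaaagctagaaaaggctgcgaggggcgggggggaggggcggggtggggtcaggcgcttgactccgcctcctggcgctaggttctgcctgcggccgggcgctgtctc
Sema3e: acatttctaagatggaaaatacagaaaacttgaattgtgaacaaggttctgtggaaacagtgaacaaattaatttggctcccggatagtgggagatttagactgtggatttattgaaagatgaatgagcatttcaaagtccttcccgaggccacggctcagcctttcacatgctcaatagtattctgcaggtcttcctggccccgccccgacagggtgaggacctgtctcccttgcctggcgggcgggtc
The E-box runs from position -193 to position -188, counted from the Sema7a start site. All 8 windows were searched on both strands for the EGR motifs GCGGGGGCG and GCGTGGGCG, the CArG box of SRF, CAGCTG and the AP-1 motif TGANTCA, none of which overlapped another in these windows. The Sema7a E-box was the single match. The Sema3a window (chr5:13396534-13396783) lies inside the annotated gene (13125414 to 13602565), so the annotated start of Sema3a was not searched. The Sema3c window (chr5:17574566-17574815) and the Nrp1 window (chr8:128358823-128359072) likewise lie inside their genes. Their annotated starts, at 17574281 and 128358604, were not searched either. The Nrp2 window (chr1:62703067-62703316) crosses its annotated start at 62703285. Among 32841 promoter windows of the same length, 13% held CAGCTG, 6.75% TGANTCA, 2.57% GCGGGGGCG, 1.47% a CArG box and 0.536% GCGTGGGCG. The Sema7a window was 66.4% G and C and the Sema3e window 48%, against a median of 52.4% over all windows.

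Among the class 3 ligands, Sema3a and Sema3e were the abundant pair. Sema3a, a repellent of axons that acts through Nrp1, had 29.4, 30.6 and 27.2 FPKM in Med23KO replicates 1, 2 and 3, against 24.2, 20.4 and 20.1 FPKM in Ctrl replicates 1, 2 and 3. All knockout libraries lay above all control libraries, by a margin smaller than for Sema7a. The log2 fold change of Sema3a was 0.42 (SE 0.109), with a knockout mean 1.35-fold the control mean.

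Sema3e, the plexin D1 ligand, went the other way. Its level was 12.0, 10.2 and 7.02 FPKM in Med23KO replicates 1, 2 and 3, against 17.6, 17.3 and 13.5 FPKM in Ctrl replicates 1, 2 and 3. The groups did not overlap, though Med23KO replicate 1 came close to Ctrl replicate 3. The knockout mean was 60.5% of the control mean (log2 fold change -0.69, SE 0.196). Because one of the pair was higher and the other lower, their ratio within a library was bound to differ between the groups. The ratio is given as a description and is no separate result. Sema3a stood at 2.44, 2.99 and 3.87 times Sema3e in Med23KO replicates 1, 2 and 3, against 1.38, 1.18 and 1.49 times in Ctrl replicates 1, 2 and 3. The mean ratio was 3.10 ± 0.720 in Med23KO and 1.35 ± 0.158 in Ctrl (SD, n = 3 each).

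The summed FPKM of the class 3 genes of the set overlapped between the groups, at 38.5 to 48.3 in Med23KO and 36.2 to 45.3 in Ctrl. Its make-up differed: Sema3e held 18.2% to 24.9% of the sum in Med23KO libraries, against 37.3% to 43.0% in Ctrl libraries. Sema3a held 60.9% to 70.5% in Med23KO, against 50.6% to 55.6% in Ctrl. Sema3a and Sema3e together made up at least 85.9% of the sum in every library. Like the ratio, these shares were bound to differ between the groups and are no separate result.

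**Figure D2:**
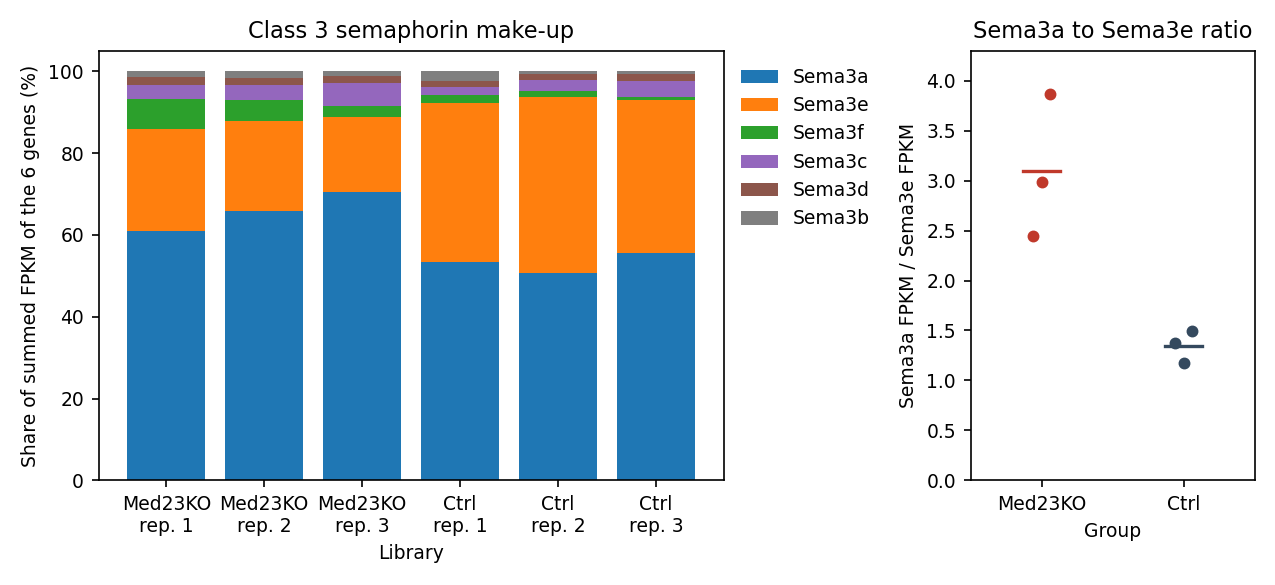
Left, share of each class 3 semaphorin gene in the summed FPKM of the 6 genes, in percent, for the Med23KO libraries and then the Ctrl libraries; right, the ratio of Sema3a to Sema3e FPKM in each library (points) with the group mean (lines). The ratio runs from 2.44 to 3.87 in Med23KO and from 1.18 to 1.49 in Ctrl.

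The other class 3 genes were scarce. Sema3f, a ligand of Nrp2, had 3.60, 2.37 and 1.05 FPKM in Med23KO replicates 1, 2 and 3, against 0.816, 0.577 and 0.292 FPKM in Ctrl replicates 1, 2 and 3. The knockout mean was 4.17-fold the control mean (log2 fold change 1.03, SE 0.299), and all knockout values lay above all control values. Sema3f reached a mean of 1 FPKM only through the knockout libraries, its control mean being 0.562 FPKM. It also varied most within the knockout group, where the SD was 54.5% of the mean. Its log2 fold change was 1.35 without Med23KO replicate 3 and 0.77 at the lowest of the other fits that left out 1 library.

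Sema3c, a ligand known for its part in the patterning of the cardiac outflow tract, had 1.55, 1.65 and 2.19 FPKM in Med23KO replicates 1, 2 and 3, against 0.907, 1.14 and 1.39 FPKM in Ctrl replicates 1, 2 and 3. Again no knockout library lay within the control range, but the nearest values of the groups were close (log2 fold change 0.38, SE 0.162). With a pseudocount of 0.1 the log2 fold change was 0.61 for Sema3c and 1.81 for Sema3f. Sema3d and Sema3b stayed below a mean of 1 FPKM and were not fitted. Sema3d had 0.979, 0.836 and 0.689 FPKM in Med23KO, against 0.712, 0.568 and 0.588 FPKM in Ctrl, with a small overlap. Sema3b, described in human tumours as a growth suppressor, had 0.699, 0.756 and 0.429 FPKM in Med23KO, against 1.05, 0.285 and 0.280 FPKM in Ctrl. A single control library held both the highest Sema3b value and most of the spread of its group.

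The neuropilins, which bind class 3 semaphorins and forms of vascular endothelial growth factor (VEGF), were abundant in both groups. Nrp1 had 27.2, 21.9 and 19.2 FPKM in Med23KO replicates 1, 2 and 3, against 22.3, 18.5 and 17.7 FPKM in Ctrl replicates 1, 2 and 3. Nrp2 had 36.4, 42.3 and 37.6 FPKM in Med23KO, against 32.4, 36.7 and 35.9 FPKM in Ctrl. The groups overlapped for both genes, with log2 fold changes of 0.21 (SE 0.152) for Nrp1 and 0.14 (SE 0.102) for Nrp2. Each Med23KO library lay above the Ctrl library of the same number in both genes. The 95% intervals of the fold changes, which take no account of replicate numbers, ran from -0.15 to 0.56 for Nrp1 and from -0.10 to 0.38 for Nrp2. These intervals leave room for a modest difference either way. Single libraries moved these values: leaving out Med23KO replicate 1 gave 0.08 for Nrp1 and leaving out replicate 3 of that group 0.32, while Nrp2 was at 0.08 without Med23KO replicate 2 and 0.09 without Ctrl replicate 1. Nrp2 exceeded Nrp1 in every library, by 1.34-fold to 1.96-fold in Med23KO and by 1.45-fold to 2.03-fold in Ctrl.

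Of the 10 genes, 7 reached the mean needed for the fit across all genes, and Sema7a alone of these was past its threshold, in a table where 1.42% of genes passed in the lower direction. In 5 of the 10, all of them among those 7, the groups did not overlap, beside 24.7% of all tested genes: Sema3a, Sema3c and Sema3f were above the control range in Med23KO, and Sema7a and Sema3e below it. Since the set was chosen on this contrast, nothing is read from these counts. The authors' deposited table tested 9 of the 10 with Cuffdiff and called 6, namely Sema3a, Sema3c, Sema3f and Plxnc1 higher and Sema7a and Sema3e lower, beside 15.7% of all genes it tested.

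The order of the levels shifted mainly through Sema7a. In Med23KO the order was Nrp2, Sema3a, Nrp1, Sema3e, Sema7a, Sema3f, Sema3c, Sema3d, Plxnc1 and Sema3b. The library ranges of neighbours overlapped between Sema3a and Nrp1, between Sema3e and Sema7a, between Sema3f and Sema3c, and from Sema3d through Sema3b. In Ctrl it was Sema7a, Nrp2, Sema3a, Nrp1, Sema3e, Sema3c, Sema3d, Sema3f, Sema3b and Plxnc1. There the ranges overlapped between Sema3a and Nrp1 and among the last 4 genes, each with its neighbour. Sema7a was thus the most abundant of the 10 in Ctrl and the fifth in Med23KO.

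The 10 genes are not spread evenly over the genome. On mm10 (GENCODE vM21), Sema3d, Sema3a, Sema3e and Sema3c follow each other on the plus strand of chromosome 5 within 5.35 megabases. Sema3a (positions 13125414 to 13602565) and Sema3e (14025276 to 14256689), which differed in opposite directions, lie 423 kilobases apart. Sema3b (107597674 to 107609229) and Sema3f (107681500 to 107710475) lie 72.3 kilobases apart on the minus strand of chromosome 9, and Sema7a (57940112 to 57962865, plus strand) lies elsewhere on that chromosome. Plxnc1 is on chromosome 10 (94790866 to 94944835, minus strand), Nrp1 on chromosome 8 (128358604 to 128503363) and Nrp2 on chromosome 1 (62703285 to 62818695), both on the plus strand. No annotated exon of Sema7a or of a class 3 gene of the set is shared with another gene. Plxnc1 shares 1.38% of its exon bases with the gene model Gm48718, and Nrp1 shares 0.818% with the microRNA gene Mir1903.

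A list of 56 further genes of the pathway covered the remaining semaphorins and plexins, other receptors, VEGF ligands and receptors, and signalling proteins inside the cell. Of these, 37 could be tested, 1 rose and 1 fell, which together is 5.41% beside the 2.91% of all tested genes (1.49% higher and 1.42% lower). The median log2 fold change of the 37 was -0.02, against -0.03 over all tested genes. Among them, 3 had all knockout values above and 6 all knockout values below the control values, a share of the 37 near the 24.7% of all tested genes.

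The fall was in Met, the receptor of hepatocyte growth factor, which can also associate with B-type plexins. Met had 32.7, 41.2 and 52.2 FPKM in Med23KO replicates 1, 2 and 3, against 81.4, 88.7 and 96.2 FPKM in Ctrl replicates 1, 2 and 3. No knockout value came near the control range (log2 fold change -1.08, SE 0.167; limma adjusted p = 0.0239). Fyn, a Src-family kinase that acts below A-type plexins in neurons, was the gene that rose. Fyn was at 32.9, 27.8 and 21.7 FPKM in Med23KO replicates 1, 2 and 3, against 15.2, 13.7 and 14.0 FPKM in Ctrl replicates 1, 2 and 3 (log2 fold change 0.88, SE 0.153, limma adjusted p = 0.0316). Leaving out any Ctrl replicate, or Med23KO replicate 1 or 2, ended both calls, with adjusted p-values from 0.0594 to 0.138 for Met and from 0.0766 to 0.163 for Fyn. They were also lost without a filter on low values, at adjusted p = 0.0559 for Met and 0.0667 for Fyn.

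The A-type plexins, which signal for the class 3 ligands, were measured at unequal levels. Plxna1, the most abundant, had 63.4, 58.3 and 45.9 FPKM in Med23KO, against 97.4, 87.4 and 67.1 FPKM in Ctrl (log2 fold change -0.57, SE 0.171, limma adjusted p = 0.124). Plxna2 had 25.7, 28.3 and 21.4 FPKM in Med23KO, against 19.1, 18.6 and 17.0 FPKM in Ctrl (log2 fold change 0.43, SE 0.124, limma adjusted p = 0.114). In both genes the groups did not overlap, yet neither passed the test in the fit with genotype as the only factor. Their values with the replicate number as a block are given below with the other processing alternatives. Plxna2 did pass without Med23KO replicate 3 (adjusted p = 0.0257) and with the libraries scaled to equal medians (adjusted p = 0.0487).

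Plxna3 averaged 2.43 ± 0.663 FPKM in Med23KO and 3.51 ± 0.919 FPKM in Ctrl (SD, n = 3 each; limma adjusted p = 0.348). Plxna4, too low to be tested, averaged 1.19 ± 0.149 FPKM in Med23KO and 0.521 ± 0.0525 FPKM in Ctrl (SD, n = 3 each), with all knockout values above all control values. Plxnd1, the receptor gene for Sema3e, averaged 24.3 ± 8.11 FPKM in Med23KO and 29.7 ± 5.86 FPKM in Ctrl (SD, n = 3 each, log2 fold change -0.32, SE 0.264, limma adjusted p = 0.574). Its difference lay within the spread of its libraries. Plxnd1 had 30.4, 27.4 and 15.1 FPKM in Med23KO replicates 1, 2 and 3, against 34.7, 31.3 and 23.2 FPKM in Ctrl replicates 1, 2 and 3. Replicate 3 was thus the lowest of each group. Without Med23KO replicate 3 alone the log2 fold change was -0.02.

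Of the VEGF genes that share neuropilins, Vegfa averaged 33.0 ± 2.12 FPKM in Med23KO and 45.0 ± 7.21 FPKM in Ctrl (SD, n = 3 each; log2 fold change -0.42, SE 0.133, limma adjusted p = 0.138). Kdr, the endothelial gene of a VEGF receptor, was at 0.429 ± 0.184 FPKM in Med23KO and 0.653 ± 0.249 FPKM in Ctrl (SD, n = 3 each), too low to be tested. None of the 7 other semaphorins tested, the 6 plexins tested and the 4 VEGF genes tested passed over all genes in the fit with all 6 libraries as deposited.

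**Figure D3:**
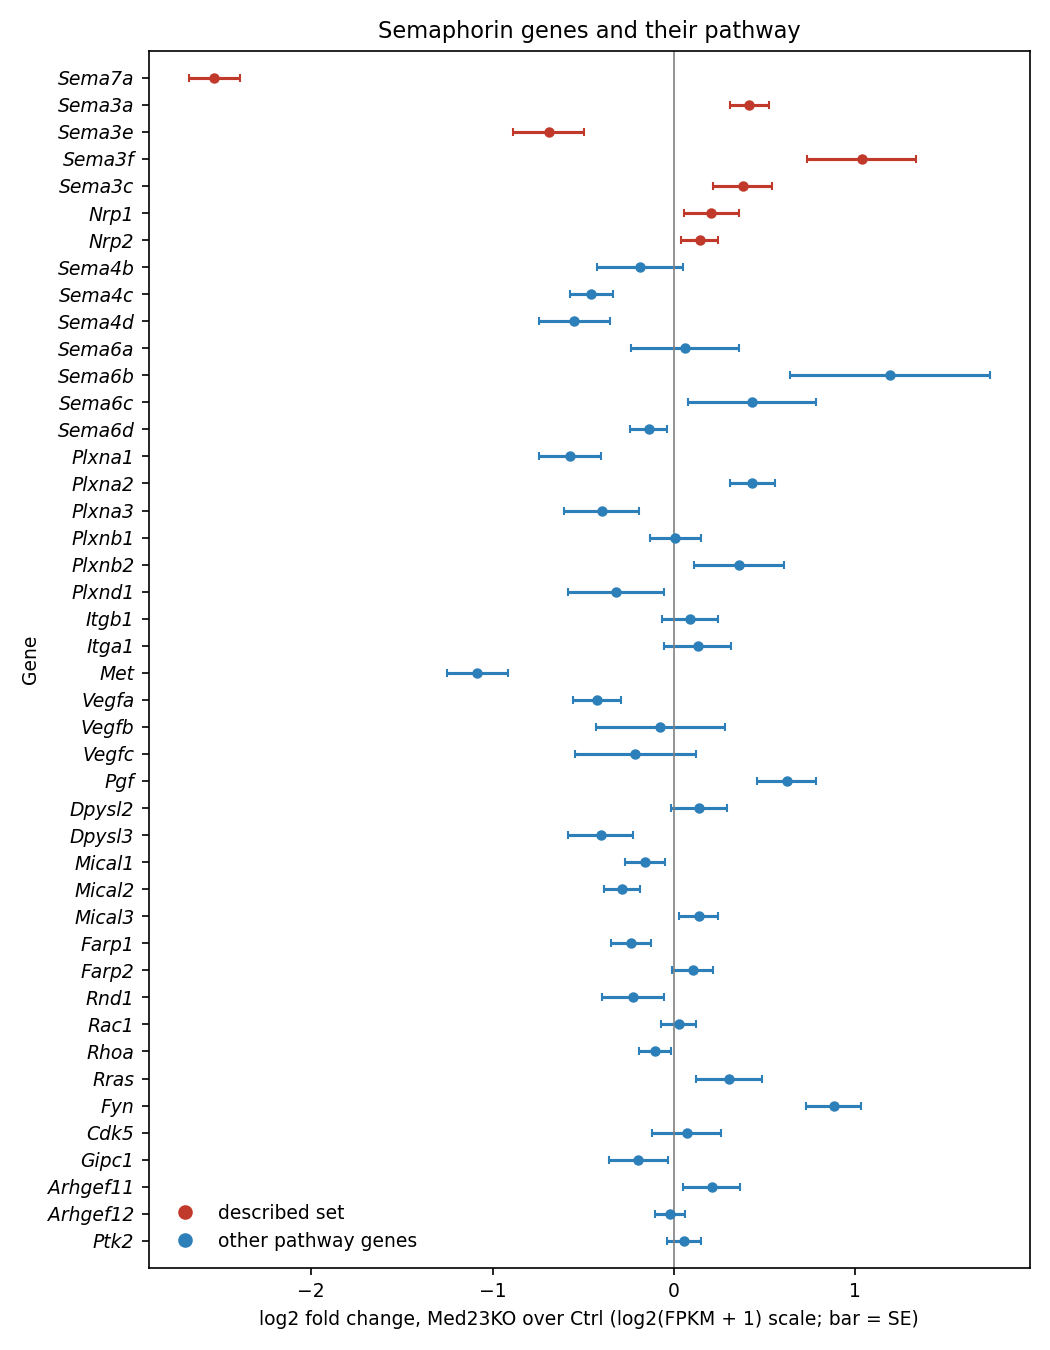
log2 fold change of Med23KO over Ctrl on the log2(FPKM + 1) scale for the 7 tested genes of the described set (red) and the 37 tested pathway genes (blue); bars are SEs from limma, n = 3 libraries per group. Sema7a lies at -2.53, and of the blue genes Met, at -1.08, and Fyn, at 0.88, passed the test over all genes.

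The profiles most like that of Sema7a belonged to genes of other families. Likeness was the root mean square difference of log2(FPKM + 1), each gene centred on its own mean, over the 6 libraries. The nearest was Gal, the gene of the neuropeptide galanin, at a difference of 0.175. It was followed by the potassium channel gene Kcnn4 (0.213), the PACAP receptor gene Adcyap1r1 (0.274), Dynap (0.288) and the neuronal pentraxin gene Nptx1 (0.292). In these 5 genes, as in Sema7a, every knockout library lay below every control library. The likeness rests mostly on the group difference itself: the order of the Med23KO libraries in Sema7a was shared by none of the 5 genes, and that of the Ctrl libraries by Adcyap1r1 alone.

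**Figure D4:**
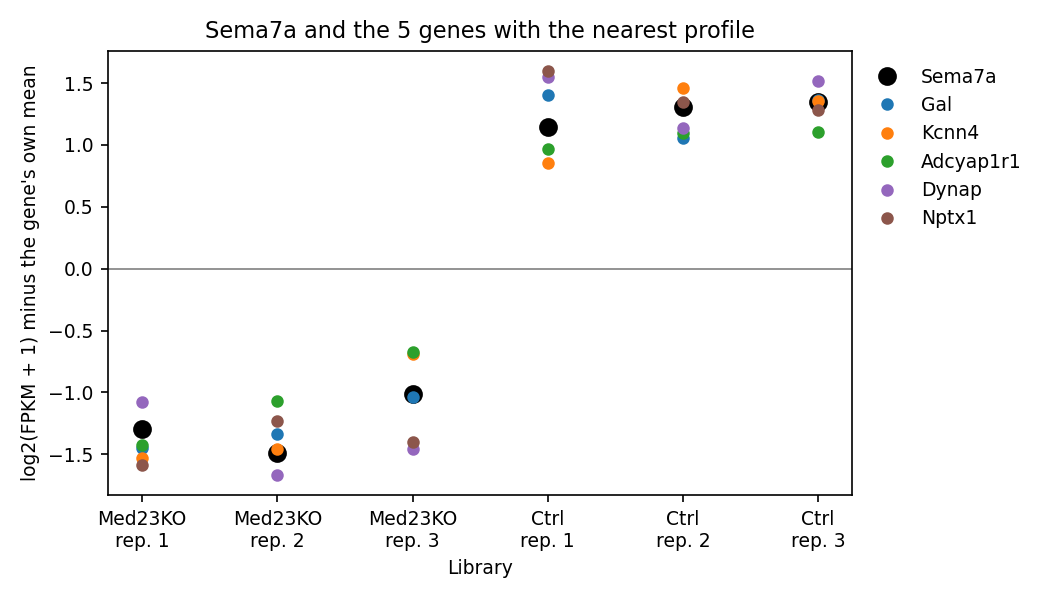
log2(FPKM + 1) minus the gene's own mean over the 6 libraries, for Sema7a (large black points) and the 5 tested genes with the nearest profile. In Sema7a the values are -1.30, -1.49 and -1.01 in the Med23KO libraries and 1.15, 1.31 and 1.34 in the Ctrl libraries.

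The cells carried the markers of their label. Pax7 averaged 48.6 ± 14.4 FPKM in Med23KO and 46.2 ± 11.6 FPKM in Ctrl (SD, n = 3 each). Of 7 tested markers of muscle stem cells and myoblasts, 0 passed in limma, with 5 positive and 2 negative fold changes. Itga7 was below every control library, averaging 58.1 FPKM in Med23KO and 98.5 FPKM in Ctrl (limma adjusted p = 0.0515). Cdh15 averaged 32.0 FPKM in Med23KO and 18.2 FPKM in Ctrl, with overlapping groups (limma adjusted p = 0.168). Myod1 made up most of the summed FPKM of this list. Myogenic differentiation moved with the groups: the 12 listed markers summed to 268 to 290 FPKM in Med23KO, against 106 to 143 FPKM in Ctrl. Of 11 tested, 7 rose in limma, beside 1.49% of all tested genes. The list was chosen with earlier results of these data known, so this count is a description. Only 3 of the 12336 tested genes were called higher without Med23KO replicate 2, so most of the 7 calls were lost there. Tnnt2 alone of the 11 had a negative log2 fold change (-0.47, limma adjusted p = 0.432), with overlapping groups. Ckm, too low to be tested, overlapped as well. Markers of fibro-adipogenic progenitors and fibroblasts summed to 218 to 333 FPKM in Med23KO, against 160 to 212 FPKM in Ctrl. Most of that sum was the collagen gene Col3a1. None of the 7 tested markers passed in limma, but all 7 had a positive fold change (median 0.49 on the log2 scale), and Col3a1, Dcn and Lum were above every control library in Med23KO. The progenitor marker Pi16 was at 0 in all knockout libraries and at most 0.0352 FPKM in Ctrl. The part of either list in the semaphorin values was not tested. In RNA from many cells, fewer cells of a type and less RNA per cell cannot be told apart.

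Markers of other cells known for semaphorins and neuropilins were low. Endothelial markers summed to 4.69 to 7.40 FPKM in Med23KO and 5.26 to 10.9 FPKM in Ctrl. The part of endothelial cells in the neuropilin values was not tested. Immune markers summed to 2.01 to 3.17 FPKM in Med23KO and 1.61 to 3.34 FPKM in Ctrl, and glial markers to 1.88 to 2.16 FPKM in Med23KO and 2.16 to 2.25 FPKM in Ctrl. Pericyte and smooth muscle markers summed to 6.58 to 9.88 FPKM in Med23KO and 8.03 to 12.9 FPKM in Ctrl. Most of that sum was Cspg4, averaging 5.92 FPKM in Med23KO and 9.36 FPKM in Ctrl, with overlapping groups. Rgs5 and Abcc9, too low to be tested, were above every control library in Med23KO, while Kcnj8 and Myh11 overlapped. The neuronal genes Snap25 and Rbfox3 were listed at 0 in every library, and the 4 neuronal markers together did not exceed 0.0574 FPKM.

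**Figure D5:**
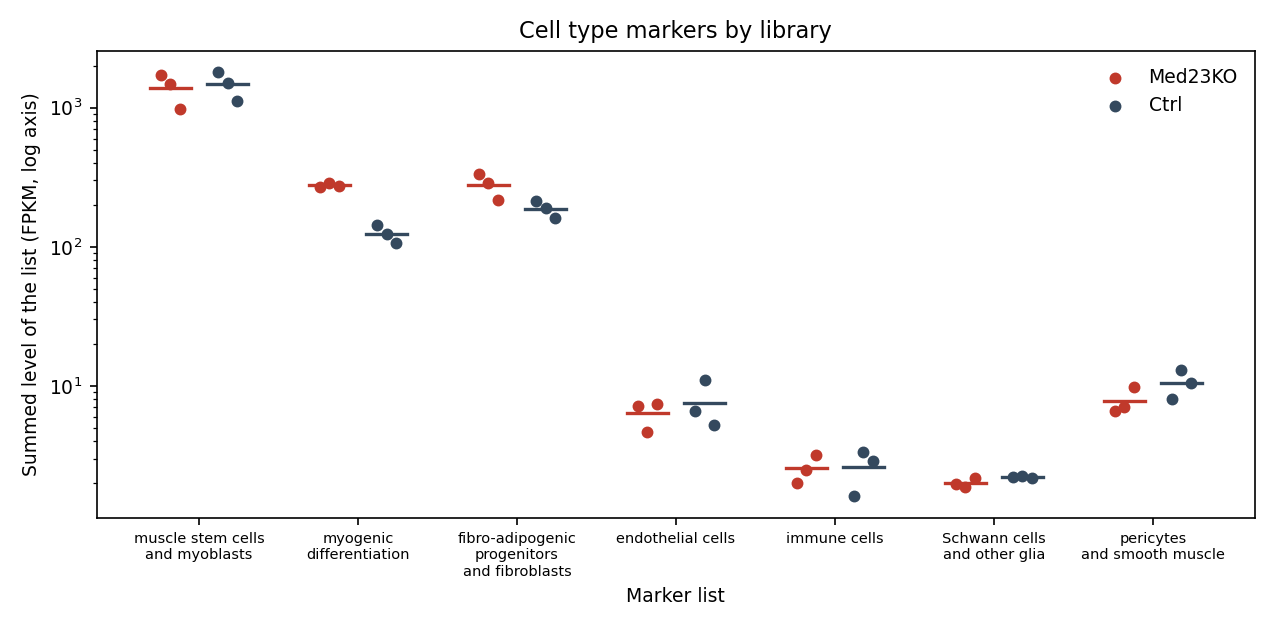
Summed FPKM (log axis) of each marker list in the 3 Med23KO libraries (red, left) and the 3 Ctrl libraries (dark, right); lines are group means, and the neuronal list, at most 0.0574 FPKM, is left out. The differentiation list lies at 268 to 290 FPKM in Med23KO against 106 to 143 FPKM in Ctrl, and the muscle stem cell list overlaps.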

How the data were processed

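The data are 6 RNA-seq libraries, 3 Med23KO and 3 Ctrl. TRIzol-extracted RNA was enriched for poly(A) and made into strand-specific libraries, per the labels' protocols. The submitters' processing notes name FastQC, cutadapt, STAR, Cuffdiff and the mm10 build; versions, annotation and strand settings were not given in the sources used here. The authors deposited 1 table with the FPKM of each library, and the p-values and q-values of their Cuffdiff comparison, per the file headers.

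Of 12368 genes listed by Ensembl identifier alone, 12316 were given symbols from GENCODE vM21. Count models do not suit FPKM, and the depth is unknown. Values were transformed to log2(FPKM + 1), and the 12336 genes whose mean reached 1 FPKM were fitted with limma 3.58.1 in R 4.3.3 (mean-variance trend, genotype as the only factor, two-sided, Benjamini-Hochberg adjustment over all genes, threshold 0.05). With 3 against 3 libraries an exact permutation test of a single gene cannot go below p = 0.1, so none was run. The fit was tested on simulated data with independent noise in each gene and library. That test did not cover effects shared by libraries of the same number. The 10 genes and all gene lists were chosen with earlier results of these data known. Named genes were the 10, Med23, the direct partners of the 10, every other pathway gene past the threshold and the 5 genes nearest to Sema7a; remaining names were chosen after their values were seen. Alternatives were another pseudocount, other filters, quantile normalization, equal medians, the replicate number as a block, fits without 1 library and the authors' q-values.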

Additional observations from a re-analysis of the deposited data

How the results depend on the processing

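All 7 fitted genes of the set kept the sign of their log2 fold change in the 12 alternative fits in which they were tested; the 5-FPKM filter left out Sema3c and Sema3f. Since the set was chosen on this contrast, nothing is read from its calls. The number of the 7 called lower was 1 and the number called higher 0, except that Sema3f was called higher without Med23KO replicate 3, so that the range without 1 library was 0 to 1. With the replicate number as a block, 2 were called higher (Sema3a and Sema3f) and 2 lower (Sema7a and Sema3e). Under that block 1180 genes were called higher and 1577 lower, and 6 and 7 pathway genes, among them Plxna2 higher (adjusted p = 0.0107) and Plxna1 (0.00173) and Vegfa (0.0368) lower. The labels do not say what a number marks. Deviations of same-numbered libraries correlated at 0.44, -0.02 and 0.56, and 4 of 6 libraries correlated best with their own number. These correlations do not settle whether the numbers pair the samples. A numerical trait, given under Other observations, sets the 3 same-numbered pairs apart from the 12 other pairs. Whether that trait reflects a pairing was not tested. If the numbers pair the samples, the fit without the block ignores that pairing. The fit without the block called 184 genes higher and 175 lower; without a filter on low values it was 73 and 84, with no pathway gene called (0 higher and 0 lower). Quantile normalization called 298 higher, equal medians 363 higher with 3 pathway genes, and the authors' deposited q-values 1130 higher and 924 lower. Without 1 library, between 3 and 749 genes were called higher and between 10 and 395 lower, and 0 to 4 pathway genes higher and 0 to 1 lower. The highest counts came without Med23KO replicate 3. Over the same fits the log2 fold change ran from -0.0427 to 0.20 for Itgb1, with -0.0229 without Med23KO replicate 3, and from -0.0210 to 0.23 for Itga1. The cause of these shifts was not tested. For genes near 1 FPKM the unknown depth limits what can be seen.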

Other observations

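Libraries with the same replicate number had a numerical trait in common. Among genes with an FPKM above 0 and under 0.05 in both libraries of a pair, where a value stands for very few fragments, 26.9% to 59.5% shared 1 ratio (within 0.03, log2) in the 3 same-numbered pairs of a Med23KO and a Ctrl library. In the 12 other pairs the share was 5.03% to 16.4%. Each pair had 207 to 342 such genes. The values are given without an explanation.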
